A study of Mus musculus with 7 samples.

Results

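Neurotransmitter-gated receptor genes were taken as the mouse genes whose symbols name subunits of the AMPA (Gria), kainate (Grik), delta (Grid) and NMDA (Grin) glutamate receptors, the metabotropic glutamate receptors (Grm), and subunits of the GABA-A (Gabr), glycine (Glra and Glrb) and nicotinic acetylcholine receptors (Chrn). The symbols alone chose them, and 42 of the 16143 genes in the deposited tables matched, with 94 transcripts between them. In the GENCODE annotation 66 protein-coding genes match the same symbols, and those without a row in the tables were not analysed here. The receptors were measured by RNA sequencing in cells of explanted retinas from ICR mice, an outbred laboratory stock. The retinas were removed at embryonic day 17.5 and cultured for 2 days. In the shKmt2f group (4 libraries) they had been electroporated with a plasmid encoding a short hairpin RNA against Kmt2f, another name of the histone methyltransferase gene Setd1a, and in the control group (3 libraries) with a control plasmid. Both groups had also received an EGFP plasmid, and EGFP-positive cells were sorted before RNA was extracted, so each library pools every cell type that took up the plasmids. The labels name a single hairpin, and they do not state whether different animals or cultures gave the libraries within a group. What the p-values measure is thus the variation among these 7 libraries, possibly only technical.

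Signals between neurons reach these receptors in different ways. AMPA, kainate and NMDA receptors are glutamate-gated cation channels, GABA-A and glycine receptors are chloride channels, nicotinic receptors are cation channels opened by acetylcholine, and metabotropic glutamate receptors act through G proteins. In the embryonic and newborn mouse retina, spontaneous waves of activity pass through nicotinic receptors before glutamate takes over that role, and GABA and glycine can depolarize immature neurons.

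Levels are given in TPM, a share of a library's transcripts scaled by length, summed over the transcripts of each gene. Between 11840 and 12318 genes reached 1 TPM in a library. The number of reads behind a TPM value is not known. Setd1a, the target of the hairpin, summed over its 4 transcripts to 8.26, 7.997, 4.50 and 6.99 TPM in the shKmt2f libraries and 11.7, 7.83 and 7.36 TPM in the control libraries. The groups overlapped, and the gene did not pass (log2 fold change -0.33, limma adjusted p = 0.365). The 3 shorter transcripts, of 315 to 730 bases, held most of this sum and overlapped as well (exact permutation p = 0.257, 0.886 and 0.8 from the most to the least abundant). The longest transcript (6487 bases) had 0.407, 0.328, 0.374 and 0.432 TPM in the shKmt2f libraries and 0.767, 0.959 and 0.764 TPM in the control libraries. For this transcript alone all shKmt2f values lay below all control values, with p = 0.0286 in an exact two-sided permutation test, the smallest that 4 against 3 libraries allow. The retinal regulators Rax (mean 214.9 TPM in shKmt2f and 224.7 TPM in control libraries) and Pax6 (216.7 and 201.4 TPM) were abundant in both groups. Among all genes, 12456 reached 1 TPM in 3 or more libraries and entered a limma fit on log2(TPM + 1), in which 1755 passed an adjusted p of 0.05 (1295 higher and 460 lower with shKmt2f). After scaling each library by the median of its gene ratios, which moved the log2 fold changes of all genes by a median of -0.12, 1940 genes passed, of which 57.7% were higher, against 73.8% without it.

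The regions around the starts of 4 receptor genes are shown because they are the 3 genes that passed the test and Chrna3, the neighbour of Chrnb4 in the nicotinic cluster. Each run is the 300-base RefSeq window of build GRCm38.p6 on the gene's own, minus strand. Capitals mark GGGCGG or its complement CCGCCC, known as a GC box, and CAGCTG, an E-box motif that reads alike on both strands. The windows are chr9:55048495-55048794 for Chrnb4, chr9:55026513-55026812 for Chrna3, chr10:49788705-49789004 for Grik2 and chr5:71095800-71096099 for Gabra2.
Chrnb4: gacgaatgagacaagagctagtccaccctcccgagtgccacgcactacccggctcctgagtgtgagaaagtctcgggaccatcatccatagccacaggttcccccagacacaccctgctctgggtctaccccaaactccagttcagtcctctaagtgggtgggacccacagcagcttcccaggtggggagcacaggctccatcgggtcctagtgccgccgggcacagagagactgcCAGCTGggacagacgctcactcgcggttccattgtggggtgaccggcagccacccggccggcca
Chrna3: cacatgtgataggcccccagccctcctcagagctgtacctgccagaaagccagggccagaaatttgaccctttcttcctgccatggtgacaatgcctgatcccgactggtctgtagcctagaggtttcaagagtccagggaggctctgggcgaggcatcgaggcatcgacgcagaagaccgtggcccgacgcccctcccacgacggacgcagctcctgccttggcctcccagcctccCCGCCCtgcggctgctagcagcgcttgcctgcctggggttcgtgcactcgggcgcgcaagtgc
Grik2: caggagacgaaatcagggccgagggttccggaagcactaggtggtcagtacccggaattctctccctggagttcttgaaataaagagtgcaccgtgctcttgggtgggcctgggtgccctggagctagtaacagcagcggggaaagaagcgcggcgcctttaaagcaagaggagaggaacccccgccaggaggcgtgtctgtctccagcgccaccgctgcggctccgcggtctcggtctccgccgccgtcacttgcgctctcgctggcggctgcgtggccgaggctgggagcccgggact
Gabra2: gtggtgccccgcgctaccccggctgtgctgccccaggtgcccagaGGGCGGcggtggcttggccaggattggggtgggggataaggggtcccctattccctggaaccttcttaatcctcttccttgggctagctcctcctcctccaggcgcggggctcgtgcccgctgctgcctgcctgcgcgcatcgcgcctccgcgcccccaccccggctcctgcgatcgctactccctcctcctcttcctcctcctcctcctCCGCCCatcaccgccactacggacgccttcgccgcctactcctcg
The Gabra2 window held 25 CG dinucleotides and 2 GC boxes, the Grik2 window 26 CG dinucleotides and neither motif, the Chrna3 window 18 and 1 GC box, and the Chrnb4 window 14 and 1 CAGCTG. Among 32851 RefSeq windows of this length the median was 7 CG dinucleotides, 35.7% held a GC box and 16.3% held CAGCTG. Among the 38 windows of the 32 receptor genes with an entry, the median was 13.5, 57.9% held a GC box and 7.89% held CAGCTG. These matches describe letters and do not show that any factor binds there. The GENCODE transcript of Chrnb4 starts further upstream than the RefSeq start on which its window is set. The most abundant transcripts of Grik2 (539 bases) and Gabra2 (2245 bases) start outside the windows shown, at chr10:49535353 and chr5:71094640. The windows thus do not show where these transcripts start.

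Of the 42 receptor genes, 17 passed the filter on low values and were tested, and 25 were under it. Of the tested genes 3 rose with shKmt2f (17.6%), the kainate subunit Grik2, the GABA-A subunit Gabra2 and the nicotinic subunit Chrnb4, and none fell. Of all tested genes, 10.4% rose and 3.69% fell. At an unadjusted p under 0.05, 5 of the 17 receptor genes were higher and 0 were lower. The share of all tested genes past this unadjusted threshold is not given here, so the unadjusted counts have no background. In the exact permutation test run on the 25 genes under the filter, 2 were at the smallest possible p, both lower. The share of all genes under the filter at that p is not given here, so this count has no background either. By ranges that did not overlap, 2 of these 25 genes lay above and 2 below. The log2 fold change, shKmt2f minus control, was positive in 15 of the 17 receptor genes and in 59.3% of all tested genes, with medians of 0.28 and 0.09. Without control replicate 1 only Grik2 rose, where 1.16% of all genes did, and without control replicate 2 a total of 5 receptor genes rose, Gria4 among them, where 19.7% of all genes did.

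**Figure D1:**
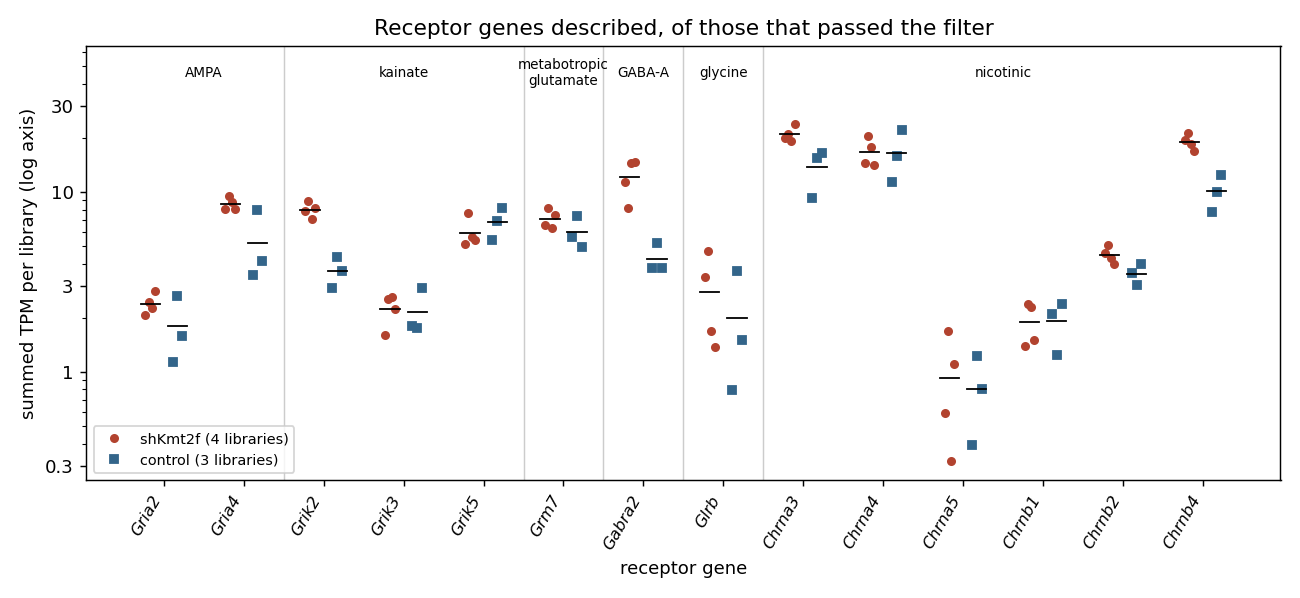
Summed TPM (log axis) of receptor genes that passed the filter and are described here, one point per library, with the shKmt2f libraries left of the control libraries for each gene and a line at each mean. Grik2, Gabra2, Chrnb4, Chrna3 and Gria4 separate the groups, while Chrna4 averaged 16.8 TPM in shKmt2f and 16.5 TPM in control libraries.

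Among the nicotinic genes Chrnb4, the beta4 subunit that assembles with alpha3 in autonomic ganglia, had 19.6, 21.4, 18.5 and 16.9 TPM in the shKmt2f libraries and 7.79, 10.1 and 12.4 TPM in the control libraries. The lowest shKmt2f library stood above the highest control library. The means were 19.1 ± 1.93 TPM in shKmt2f (SD, n = 4) and 10.1 ± 2.32 TPM in control libraries (SD, n = 3), a difference of 0.87 on the log2 scale (SE 0.17, adjusted p = 0.0214 in limma). The call was lost, with the direction kept, when any of 4 libraries was left out: limma adjusted p was 0.0616 without control replicate 1 and 0.0683, 0.0628 and 0.0508 without shKmt2f replicates 1, 2 and 3. Chrnb4 is a single transcript of 3723 bases at chr9:55028154-55048779 on the minus strand.

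Its partner Chrna3, the alpha3 subunit, had 19.96, 21.2, 19.3 and 24.0 TPM in the shKmt2f libraries and 9.23, 15.4 and 16.6 TPM in the control libraries. The ranges did not touch, but control replicate 1 lay well below the other controls and the gene did not pass (log2 fold change 0.62, SE 0.20, limma adjusted p = 0.0711, with 0.0537 to 0.190 over the alternatives and a fold change of 0.30 after the GC and length correction). Chrna3 lies at chr9:55010111-55026562 on the minus strand, 1592 bases from Chrnb4. On its other side, 2332 bases away on the plus strand, lies Chrna5, an accessory subunit, at chr9:54980880-55007779. Chrna5 had 0.322 to 1.69 TPM in shKmt2f and 0.391 to 1.23 TPM in control libraries, with overlapping ranges and a log2 fold change of 0.06 (limma adjusted p = 0.895). Its level was thus far below that of both neighbours.

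Of the 6 tested genes nearest to this cluster, 2 rose and the other 4 did not pass, where 10.4% of all tested genes rose and 3.69% fell. Ireb2, which encodes an RNA-binding regulator of iron metabolism and lies beyond Chrna5, averaged 19.3 TPM in shKmt2f and 6.96 TPM in control libraries (log2 fold change 1.45, limma adjusted p = 0.0236). Ube2q2, a ubiquitin-conjugating enzyme gene beyond Chrnb4, averaged 49.7 TPM in shKmt2f and 26.5 TPM in control libraries (0.94, limma adjusted p = 0.0280). These 6 genes were picked by position after the cluster's values were known.

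The alpha4 and beta2 subunits form the main high-affinity nicotinic receptor of the brain, and neither passed. Chrna4 had 14.5, 20.6, 17.8 and 14.2 TPM in the shKmt2f libraries and 11.5, 15.9 and 22.1 TPM in the control libraries (log2 fold change 0.05, limma adjusted p = 0.895). Its groups overlapped along most of their range. Chrnb2 averaged 4.50 ± 0.471 TPM in shKmt2f and 3.53 ± 0.469 TPM in control libraries (0.28, limma adjusted p = 0.228). Chrnb1, a subunit known from muscle, averaged 1.90 TPM in shKmt2f and 1.91 TPM in control libraries, and Chrna1 and Chrna7 stayed under the filter. Chrna3 and Chrnb4 together made up 58.3 to 66.0% of the nicotinic TPM in shKmt2f and 48.8 to 54.1% in control libraries, a description that rests in part on the called gene.

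Among the kainate genes Grik2, which encodes a pore-forming subunit able to form channels alone, had 7.86, 8.90, 7.05 and 8.17 TPM in the shKmt2f libraries and 2.94, 4.35 and 3.66 TPM in the control libraries. Every shKmt2f library was far above every control library. The means were 7.996 ± 0.767 TPM in shKmt2f (SD, n = 4) and 3.65 ± 0.703 TPM in control libraries (SD, n = 3), which is 0.96 on the log2 scale (SE 0.16, adjusted p = 0.0143 in limma). Grik2 was the one receptor gene that passed with each library left out in turn (limma adjusted p from 0.00315 to 0.0482). After each library's dependence on GC content was removed its log2 fold change was 0.45 (limma adjusted p = 0.05003), just outside the threshold, and after GC and length it was 0.37 (0.0757).

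The other kainate subunits did not follow. Grik5, which needs a partner such as the Grik2 product to reach the membrane, had 5.16, 7.61, 5.67 and 5.41 TPM in the shKmt2f libraries and 5.43, 6.95 and 8.12 TPM in the control libraries (log2 fold change -0.17, limma adjusted p = 0.571). The groups overlapped. Only 17.7% of the Grik5 TPM in shKmt2f and 17.6% in control libraries was on a transcript annotated as coding. Grik3 averaged 2.25 TPM in shKmt2f and 2.16 TPM in control libraries (log2 fold change 0.05, limma adjusted p = 0.885). Grik4, the relative of Grik5, was under the filter with 0.244, 0.534, 0.547 and 0.269 TPM in the shKmt2f libraries and 0.938, 0.818 and 0.841 TPM in the control libraries. Here all shKmt2f libraries lay below all control libraries (exact permutation p = 0.0286, unadjusted). Tested without the filter, Grik4 had a log2 fold change of -0.42 (limma adjusted p = 0.0464), where 2.56% of all genes fell. With sums weighted by transcript length it was -0.95 (limma adjusted p = 0.0295), where 6.9% of genes fell. Grik2 made up 44.4 to 52.9% of the kainate TPM in shKmt2f and 23.5 to 31.4% in control libraries.

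Among the GABA-A genes Gabra2, an alpha subunit with a known role in benzodiazepine-sensitive receptors, had 11.3, 8.11, 14.5 and 14.8 TPM in the shKmt2f libraries and 3.77, 5.19 and 3.79 TPM in the control libraries. The groups did not overlap, and the shKmt2f libraries varied more among themselves than the controls. The means were 12.2 ± 3.13 TPM in shKmt2f (SD, n = 4) and 4.25 ± 0.816 TPM in control libraries (SD, n = 3), which is 1.31 on the log2 scale (SE 0.22, adjusted p = 0.0152 in limma). The call was lost without control replicate 1 (limma adjusted p = 0.0524), without control replicate 3 (0.0521), after the GC correction (log2 fold change 0.68, 0.0767) and after GC and length (0.61, 0.120), each in the same direction.

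Of the 15 GABA-A genes 12 were under the filter, and among these Gabra4 and Gabrr3 were higher and Gabre lower in every shKmt2f library than in every control library, at 0.0211 to 0.108, 0.0321 to 0.120 and 0.0302 to 0.0997 TPM in shKmt2f. In the control libraries Gabra4 was listed at 0 in all, Gabrr3 lay between 0 and 0.0315 TPM and Gabre between 0.108 and 0.230 TPM. Unadjusted exact permutation p was 0.0571 for Gabra4, 0.114 for Gabrr3 and 0.0286 for Gabre. Of all genes under the filter, 7.08% were higher and 4.99% lower in every shKmt2f library than in every control library. These levels are near 0 TPM, and the Gabrr3 ranges almost touched.

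The AMPA genes were led by Gria4, with 8.10, 9.48, 8.79 and 8.04 TPM in the shKmt2f libraries and 3.47, 8.002 and 4.13 TPM in the control libraries. The ranges were separated by the narrow gap above control replicate 2 and overlapped once libraries were scaled by their median ratio. On the log2 scale the difference was 0.70 (SE 0.24, adjusted p = 0.0796 in limma), and without control replicate 2 it was 1.00 (limma adjusted p = 0.00321). After the GC and length correction it was 0.13 (limma adjusted p = 0.571). Gria2, whose RNA-edited product limits calcium entry, averaged 2.40 TPM in shKmt2f and 1.80 TPM in control libraries (0.31, limma adjusted p = 0.314). Transcripts annotated as coding held only 12.7% of the Gria2 TPM in shKmt2f and 14.5% in control libraries. Gria1 and Gria3 were under the filter.

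The remaining classes held no gene that passed in limma, adjusted or at an unadjusted p under 0.05. Only 1 gene each of the metabotropic glutamate, glycine and delta classes was tested. No NMDA gene reached the filter, so that class was not tested in this fit. Grm7, a presynaptic metabotropic receptor, averaged 7.12 ± 0.855 TPM in shKmt2f and 5.97 ± 1.23 TPM in control libraries (SD, n = 4 and 3, log2 fold change 0.23, limma adjusted p = 0.388). Glrb, the glycine receptor subunit that binds the scaffold gephyrin, had 3.36, 4.69, 1.68 and 1.38 TPM in the shKmt2f libraries and 0.791, 3.66 and 1.51 TPM in the control libraries (0.36, limma adjusted p = 0.564). Within each group the Glrb libraries differed more than the group means did. Only 12.5% of the Glrb TPM in shKmt2f and 27.9% in control libraries was on a transcript annotated as coding. The NMDA genes were the lowest class, and none exceeded 0.433 TPM in any library. Their highest mean was that of Grin2c, at 0.355 TPM in shKmt2f and 0.299 TPM in control libraries, and Grin1, the obligatory subunit, averaged 0.349 and 0.272 TPM.

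Levels spread widely over the receptors. Only 5 of the 42 genes reached 10 TPM in any library and 9 averaged at least 5 TPM, while 23 stayed under 1 TPM in every library. The 25 genes under the filter had means between 0.00793 and 0.855 TPM and reached at most 1.19 TPM. Their values near 0 carry little weight without a known depth. Taking all 42 genes, 7 were higher in every shKmt2f library than in every control library (16.7%, where the same held for 16.4% of all genes) and 2 were lower in every one (4.76%, against 8.60% of all genes). Of the 17 tested genes, 5 were higher in every shKmt2f library (29.4%, against 19.2% of all tested genes) and 0 were lower in every one (background 9.67%). Among the 25 under the filter 2 were above and 2 below, where 7.08% and 4.99% of all genes under it were.

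Summed over a class, the nicotinic genes had 61.2, 73.1, 63.2 and 61.9 TPM in the shKmt2f libraries and 34.9, 47.2 and 58.7 TPM in the control libraries. These groups did not overlap, also after median-ratio scaling. The sum includes Chrnb4 and Chrna3, whose own ranges did not overlap, so its separation is not a result apart from theirs. The GABA-A genes summed to 26.1, 25.2, 30.7 and 32.4 TPM in shKmt2f and 13.8, 25.6 and 13.6 TPM in control libraries, where control replicate 2 reached into the shKmt2f range. The kainate genes summed to 14.9 to 19.6 TPM in shKmt2f and 11.1 to 15.6 TPM in control libraries, the AMPA genes to 10.4 to 12.5 and 4.93 to 10.9 TPM, and both overlapped.

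Together the receptors held 125.7, 146.3, 131.4 and 134.0 TPM in the shKmt2f libraries and 73.7, 112.0 and 102.7 TPM in the control libraries, with no overlap, also after scaling. This total includes the called genes Grik2, Gabra2 and Chrnb4, so its separation is not a result apart from theirs. Nicotinic genes were the largest class in each library, at 46.2 to 50.0% of the receptor TPM in shKmt2f and 42.1 to 57.1% in control libraries. By count, 1 of 3 tested kainate genes, 1 of 3 tested GABA-A genes and 1 of 6 tested nicotinic genes rose, against 10.4% of all tested genes, and of the 2 tested AMPA genes none passed, with 1 at an unadjusted p under 0.05. Median log2 fold changes were 0.05, 0.50, 0.17 and 0.51 in these 4 classes. Genes of a class are not replicates, and no difference between classes was tested.

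**Figure D2:**
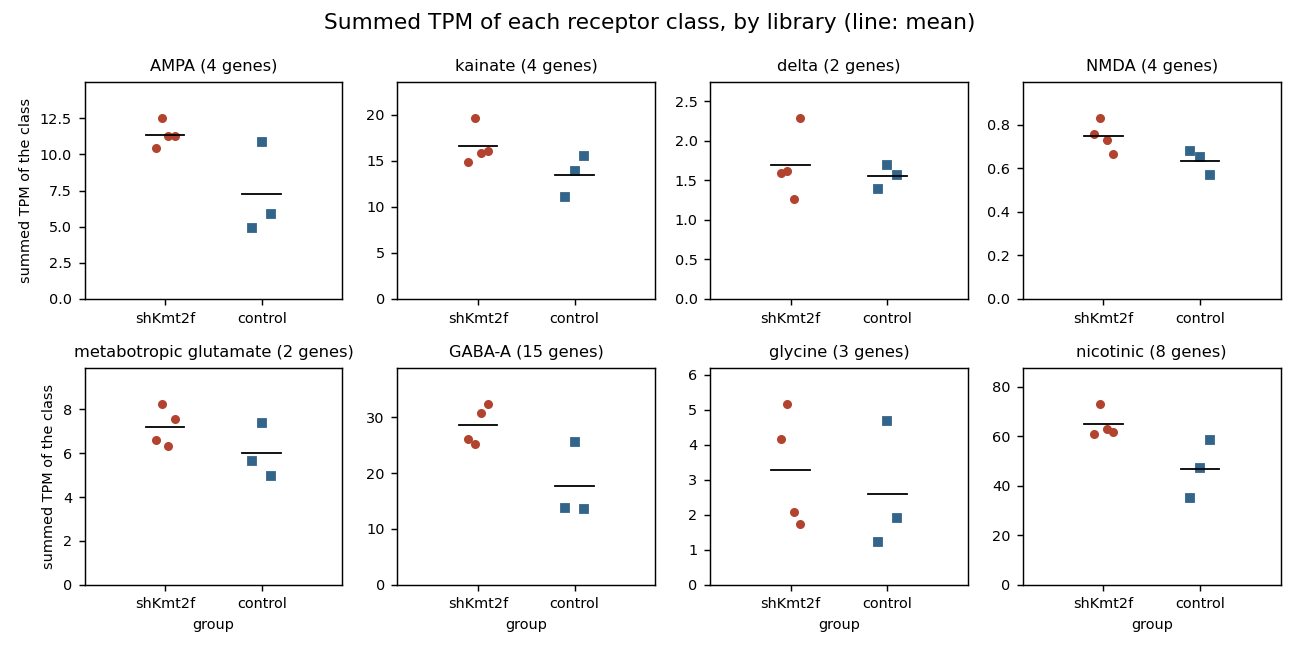
Summed TPM of each receptor class per library (linear axes from 0, a scale for each panel), with shKmt2f left, control right and lines at the means. The nicotinic panel alone among the classes separates the groups, at 61.2 to 73.1 TPM in shKmt2f and 34.9 to 58.7 TPM in control libraries. Its sums include the called gene Chrnb4.

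The transcripts behind the called genes were mixed in kind. Of the 94 receptor transcripts 27 passed the filter, and in limma over single transcripts 2 of them were higher (7.41%, where 1.44% of all tested transcripts were higher and 0.794% lower) and 0 were lower, with 11 higher and 0 lower at an unadjusted p under 0.05. No share of all tested transcripts at this unadjusted threshold is given here. Neither call was stable: the count was 0 without the filter, with a pseudocount of 0.1, without the prior trend, and when any library other than control replicate 2 was left out, and 5 without control replicate 2. The first was the single Chrnb4 transcript (limma adjusted p = 0.0468). The second was a Gabra2 transcript of 2245 bases annotated as a target of nonsense-mediated decay, a route that degrades RNA with an early stop codon. It had 4.59, 3.28, 5.94 and 5.87 TPM in the shKmt2f libraries and 1.39, 1.98 and 1.64 TPM in the control libraries (log2 fold change 1.13, limma adjusted p = 0.0462), so the groups lay apart.

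Gabra2 transcripts annotated for nonsense-mediated decay held 52.8% of the gene's TPM in shKmt2f and 53.4% in control libraries. The only Gabra2 transcript annotated as protein-coding (5852 bases) had 0.929, 0.743, 1.15 and 1.01 TPM in shKmt2f and 0.492, 0.785 and 0.262 TPM in control libraries. It overlapped between groups, was under the filter, and held 7.86% of the gene's TPM in shKmt2f and 12.1% in control libraries. The rise of Gabra2 was therefore measured mostly on transcripts that are not annotated as coding.

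Grik2 differed in this respect, since transcripts annotated as coding held 84.3% of its TPM in shKmt2f and 77.4% in control libraries. Their sum was 6.41, 7.60, 5.96 and 6.99 TPM in the shKmt2f libraries and 2.54, 2.73 and 3.20 TPM in the control libraries. These groups did not overlap, and on coding transcripts alone Grik2 kept its call, as did Chrnb4, where 13.4% of all genes rose (log2 fold change 1.02, limma adjusted p = 0.00975). Its most abundant transcript was a fragment of 539 bases at chr10:49356033-49535353, with 2.67, 3.90, 1.99 and 2.91 TPM in shKmt2f and 1.01, 0.702 and 1.44 TPM in control libraries (limma adjusted p = 0.0698). The other coding transcript of Grik2 that passed the filter (3992 bases) had 1.16 to 1.69 TPM in shKmt2f and 0.522 to 1.30 TPM in control libraries. Its groups overlapped (log2 fold change 0.36, limma adjusted p = 0.336). The longest Grik2 transcript (9427 bases) had 0.168 to 0.320 TPM in shKmt2f and 0.142 to 0.341 TPM in control libraries, which overlapped.

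**Figure D3:**
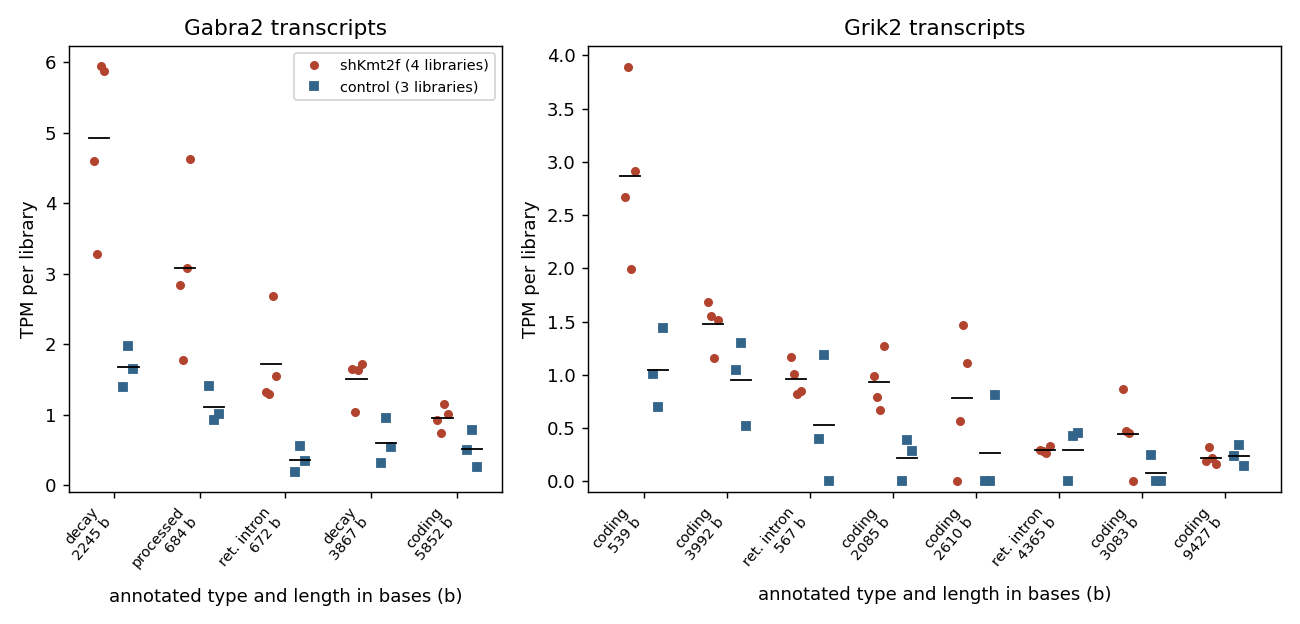
TPM of the single transcripts of Gabra2 and Grik2, one point per library, shKmt2f left of control, each labelled by annotated kind and length in bases (b). The Gabra2 transcript of 2245 bases runs from 3.28 to 5.94 TPM in shKmt2f and from 1.39 to 1.98 TPM in control libraries, while the coding one of 5852 bases overlaps.

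In the authors' deposited table, which holds their own test per transcript with an effect on a natural log scale, 5 receptor transcripts were higher at a q-value under 0.05 (5.32%, where the background was 3.43% of all transcripts) and 1 was lower (background 2.09%). The higher ones in the authors' deposited table were Chrnb4 (q = 7.67e-07, effect 0.57), the Gabra2 transcript of 2245 bases (q = 0.000104, effect 0.98), the 4358-base transcript of Chrna3 (q = 0.0302, effect 0.31), the 2338-base transcript of Gria4 (q = 0.0303, effect 0.55) and a Gria2 transcript with a retained intron (q = 0.0167, effect 4.62). That Gria2 transcript of 1975 bases was listed at 0 in all control libraries and at 0.186 to 0.834 TPM in shKmt2f libraries. The lower one in the authors' deposited table was the 3413-base transcript of Grik4 (q = 0.0175, effect -0.90).

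Genes that work beside the receptors were read from 6 lists. The shares to read the counts against are the 10.4% of all tested genes that rose and the 3.69% that fell. Counts at an unadjusted p have no such share given here. Of 9 tested auxiliary subunits of AMPA and kainate receptors, 1 rose and none fell, with none lower at an unadjusted p under 0.05 either. That gene was Neto2, whose product binds kainate receptors and slows their closing, with 9.34, 12.3, 9.54 and 10.01 TPM in the shKmt2f libraries and 2.78, 6.71 and 4.68 TPM in the control libraries (log2 fold change 1.03, limma adjusted p = 0.0306). All shKmt2f libraries lay above all controls. Of 22 tested scaffold and adhesion genes, 3 rose and none fell, with 0 lower at an unadjusted p under 0.05. Among them were Nlgn1, a postsynaptic adhesion protein (24.6 ± 3.15 TPM in shKmt2f and 12.9 ± 3.19 TPM in control libraries, SD, n = 4 and 3, limma adjusted p = 0.0237) and Nptx1, a secreted protein that gathers AMPA receptors (3.72 and 1.47 TPM, 0.0456).

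Of 13 tested genes of transmitter synthesis and transport, 1 rose and 1 fell. At an unadjusted p under 0.05 in limma, 3 were higher and 2 lower, these included. Slc17a7, a vesicular glutamate transporter, averaged 5.88 TPM in shKmt2f and 2.83 TPM in control libraries (log2 fold change 0.90, limma adjusted p = 0.0438). Glul, the glutamine synthetase of glia, averaged 175.9 ± 5.54 TPM in shKmt2f and 258.1 ± 28.4 TPM in control libraries (-0.55, limma adjusted p = 0.0189). Among 4 tested transmitter receptors outside the rule, Gprc5b, an orphan G protein-coupled receptor, fell and none rose, with 1 higher at an unadjusted p under 0.05 (2.26 TPM in shKmt2f and 6.68 TPM in control libraries, -1.25, limma adjusted p = 0.0141). None of 5 tested helpers of nicotinic and glycine receptors and none of 3 tested chloride transporters passed in limma, with 0 at an unadjusted p under 0.05. Of these, Lypd6, a modulator of nicotinic receptors, averaged 22.0 TPM in shKmt2f and 19.8 TPM in control libraries, and Slc12a7, a potassium-chloride cotransporter, 13.4 and 11.97 TPM. The median log2 fold changes of the 6 lists lay between 0.07 and 0.21, against 0.09 for all tested genes. The count of 5 higher companion genes rested on single libraries: it was 0 without control replicate 1 and without shKmt2f replicate 1, 2 or 4, 1 without control replicate 3 or shKmt2f replicate 3, and 9 without control replicate 2.

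Markers of retinal cell types differed between the groups as well. In a bulk library, fewer cells of a type and less RNA per cell cannot be told apart. Marker counts stand beside the 10.4% of all tested genes that rose and the 3.69% that fell. Of the 12 ganglion cell markers 6 were tested and all 6 rose, and the list summed to 45.2 to 52.3 TPM in shKmt2f and 19.3 to 28.6 TPM in control libraries. The ganglion cell regulators Pou4f1 and Pou4f2 stayed under 0.5 TPM in every library. Amacrine markers summed to 330.1 to 371.3 TPM in shKmt2f and 261.5 to 309.8 TPM in control libraries (2 of 8 tested rose), horizontal cell markers to 21.2 to 29.0 and 11.9 to 19.4 TPM (2 of 4), photoreceptor markers to 707 to 945 and 456 to 572 TPM (3 of 9), and neurogenic progenitor markers to 2468 to 2732 and 1800 to 2364 TPM (3 of 9, with 1 lower). Single abundant genes carried much of the amacrine, photoreceptor, ganglion cell and neurogenic progenitor sums. Meis2 averaged 108.6 TPM in shKmt2f and 59.1 TPM in control libraries, Otx2 557.9 and 370.1 TPM, and Gap43 22.1 and 10.6 TPM. Of the neurogenic progenitor list, Neurod4 averaged 684.9 TPM in shKmt2f and 230.9 TPM in control libraries. Hes6, the lower one, averaged 861.4 and 1227 TPM, and Atoh7 ran from 20.4 to 429 TPM within shKmt2f. The median log2 fold change was 0.10 for amacrine, 0.64 for horizontal cell and 0.32 for photoreceptor markers. It was -0.23 for neurogenic progenitor markers, against 0.09 for all tested genes. Progenitor markers summed to 1003 to 1148 TPM in shKmt2f and 1161 to 1478 TPM in control libraries, with 2 of 12 lower. Bipolar and Mueller glia lists overlapped between groups, with 1 of 3 tested higher and 1 of 4 tested lower. Of cell types from outside the neural retina, endothelial markers overlapped at 72.6 to 108.7 TPM in shKmt2f and 62.3 to 104.9 TPM in control libraries, astrocyte, microglia, muscle and pigment epithelium lists summed to at most 1.81 TPM, and no erythroid marker was in the tables. Some genes stand in 2 lists, such as Isl1 and Glul. The part of cell composition in the receptor values was not tested.

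Transcript length and base composition also differed between the receptors and other genes. The tested receptor genes had a median length of 2974 bases and a median GC content of 47.2%, against 1592 bases and 50.4% for all tested genes. With all tested genes split by length into 5 groups of like size, 9 of the 17 were in the longest group and 7 in the next, where 16.5% and 14.8% of all tested genes rose. The receptor share of 17.6% stood near these. After the GC correction 1 receptor gene rose, where 5.16% of all genes did, and after GC and length also 1, where 5.02% did. It was Chrnb4 both times (log2 fold change 0.84 and 0.70, limma adjusted p = 0.00944 and 0.00770). After the GC and length correction the log2 fold change was positive in 9 of 17 receptor genes, against 49.9% of all genes, with medians of 0.03 and 0.00.

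**Figure D4:**
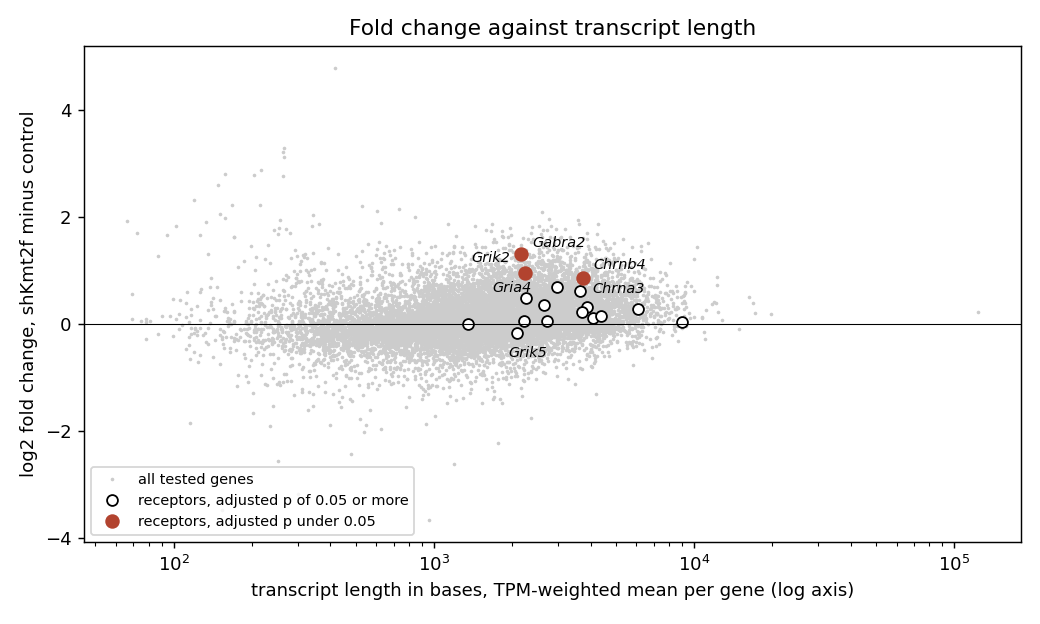
Log2 fold change (shKmt2f minus control) of each tested gene against its TPM-weighted transcript length in bases (log axis), with receptor genes as circles, filled where the limma adjusted p was under 0.05. The receptor genes lie to the right of most genes, at a median of 2974 bases against 1592 bases.

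**Figure D5:**
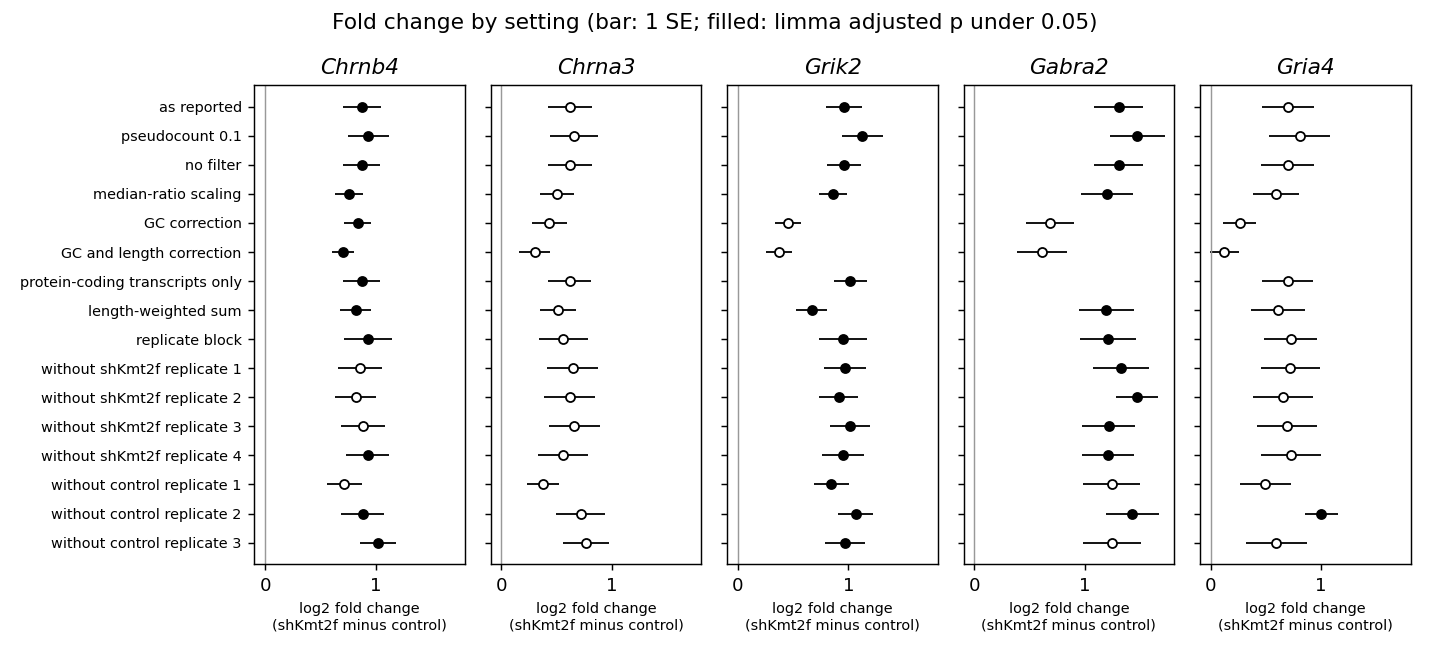
Log2 fold change (shKmt2f minus control) with 1 SE of Chrnb4, Chrna3, Grik2, Gabra2 and Gria4 (a panel each) under each setting (rows), filled where the limma adjusted p was under 0.05. Every value is above 0, Gabra2 has none on coding transcripts only, and the Gabra2 and Grik2 values move to 0.61 and 0.37 after the GC and length correction.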

How the data were processed

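RNA was measured in 4 shKmt2f and 3 control libraries. Per the submitters' processing notes, Salmon 0.11.3, sleuth 0.30.0 and build GRCm38.p6 were used. The authors deposited 1 table per library in TPM per transcript, with p-value, q-value and effect columns that are alike in all tables. That effect is on a natural log scale, judged from the values beside the TPM deposited. Each table has 55475 rows, and 71 hold no TPM. TPM totals were 991445 to 992309, and sequencing depth is unknown, so no counting interval is given.

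TPM was summed per gene. Those that reached 1 TPM in 3 or more libraries were tested on log2(TPM + 1) in limma 3.58.1 (R 4.3.3), with trended and robust empirical Bayes, the group as only term and Benjamini-Hochberg adjustment over all genes. Fold changes on this scale understate the change of low genes. The same model was fitted to transcripts. Single values were also compared by an exact two-sided permutation test over 35 splits. The limma step was tested on simulated data. Corrections for GC content and length used a loess curve per library (span 0.3). Positions and lengths came from GENCODE on GRCm38 and start windows from RefSeq. The receptor genes and lists were chosen with earlier results of these data known. Otherwise the text names all receptors past the threshold, the highest of each class, and of each companion list up to 4 past it by adjusted p or, with none, up to 2 of the highest level. Some tested genes that the rule covers are counted but not reported here. Other receptors named as partners or for ranges that did not overlap were chosen after their values were seen. Alternatives were another pseudocount, other filters, median-ratio scaling, the GC and length corrections, coding transcripts only, length-weighted sums, a replicate block, no prior trend, and each library left out. No receptor gene was listed at 0 in every library.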

Additional observations from a re-analysis of the deposited data

Results flagged for a closer look

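Of 25 sums and gene levels examined for a library far from the others of its group, 1 stood out. The nicotinic genes of shKmt2f replicate 2 summed to 73.1 TPM, while the other shKmt2f libraries lay between 61.2 and 63.2 TPM, and the gap was 0.832 of the group's range, just over Dixon's critical value for 4 samples. Chance picks about 1 in 20 such groups. The values of Chrna4 (20.6 TPM) and Chrnb4 (21.4 TPM) were the highest of the shKmt2f libraries there, and its median-ratio factor of 1.12 was the largest of the 7 libraries. After that scaling the sums were 59.5 to 66.1 TPM in shKmt2f and 41.4 to 57.4 TPM in control libraries. The part of that library's composition in the value was not tested.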

How the results depend on the processing

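The count of 3 higher receptor genes was 1 after the GC correction and 1 after GC and length, and 1 to 5 with a library left out. The count of classes with a higher gene, 3, was likewise 1 after either correction and 1 to 4 with a library left out. The count of 0 lower receptor genes became 1 without the filter and 1 with length-weighted sums, Grik4 both times. The 2 higher transcripts became 1 after GC, GC and length, median-ratio scaling or a filter of 5 TPM, 0 without the filter, without the prior trend or with pseudocount 0.1, and 0 to 5 with a library left out. The 5 higher companion genes became 3 without the filter, 3 with pseudocount 0.1, 8 on coding transcripts and 0 to 9 with a library left out, and the 2 lower ones 5 with length-weighted sums and 1 to 3 with a library left out. The whole-table count of 1755 was 286, 3004 and 351 without control replicates 1, 2 and 3 and 283, 336, 519 and 504 without shKmt2f replicates 1 to 4, a range of 283 to 3004. Each of these fits also had fewer samples, and what moved the counts was not tested. None of the 3 called receptor genes changed direction under the alternatives. Of the single-gene values, 261 kept their side of the threshold, 10 lost it and 2 gained it. The unknown depth limits every value near 0 TPM.

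In their deviations from the group means, same-numbered libraries correlated at only 0.0793, 0.0651 and 0.0597. Control replicates 1, 2 and 3 each correlated best with an shKmt2f library of another number (0.0976, 0.0863 and 0.0874). With so few libraries, these small values cannot decide whether the numbers pair them. With a replicate block 1377 genes, 3 higher receptor genes, 0 receptor transcripts, 4 higher and 3 lower companion genes passed.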
